A study of Mus musculus with 9 samples.

Results

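The genes described here carry out or control the synthesis of cholesterol and fatty acids. They are 32 genes listed by symbol for their role: 5 regulators of the pathway, 17 enzymes of sterol synthesis, 1 sterol carrier and 9 enzymes that make, desaturate or elongate fatty acids. The rule that lists them uses no measured value, and all 32 were found among the 15384 genes of the count table. The cells were MyC-CaP, a mouse prostate cancer line from a tumour driven by a Myc transgene, grown as 1 line in wells, starved for 6 to 12 h in medium lacking serum and calcium, and given 100 ng/mL of recombinant asporin (rASPN), a small leucine-rich proteoglycan of the stroma. Poly(A) RNA libraries represented time 0, 12 h and 24 h with rASPN, 3 replicate wells at each time, and the labels call also the time 0 libraries ASPN-treated. No library of cells kept for 12 or 24 h without rASPN was analysed here, so the protein and the time in starvation medium cannot be told apart in any comparison.

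Total counts ran from 41881191 to 52993821 per library, and a count of 3 was worth 0.0566 to 0.0716 CPM, the unit of counts scaled to library size. The cells are labelled epithelial-like. Krt8, Krt19 and Cldn3 were present, but Epcam had 1 count in 1 of 9 libraries and Cdh1, Cldn7 and Krt18 did not exceed 10, 2 and 22 counts. The epithelial list summed to 708 to 760 CPM at time 0, 711 to 736 CPM at 12 h and 839 to 918 CPM at 24 h. Of the adipocyte list, the summed level was 22.0 to 25.4 CPM at time 0, 26.8 to 29.0 CPM at 12 h and 47.5 to 49.95 CPM at 24 h, almost all of it Fabp4, while the droplet genes Plin1 and Cidec did not exceed 10 and 4 counts; the immune list, nearly all Cd14, was at 9.02 to 9.33, 18.2 to 22.2 and 17.5 to 23.7 CPM at the 3 times, and the fibroblast list, nearly all Pdgfra, at 13.0 to 14.1, 12.2 to 12.5 and 9.09 to 10.3 CPM. The part of these lists in the results below was not tested.

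Cells make cholesterol and fatty acids from acetyl-CoA. The sterol branch joins acetyl units into mevalonate, converts mevalonate to isoprenoids, couples these into squalene, and folds and trims squalene into cholesterol. The fatty acid branch carboxylates acetyl-CoA, builds palmitate on a single large synthase, and then lengthens and desaturates the product. Both branches are under the SREBP transcription factors, which are made as membrane proteins, carried from the endoplasmic reticulum by SCAP when sterols are low, and held there by the INSIG proteins when sterols are plentiful. SREBP2 is best known for the sterol genes and SREBP1 for the fatty acid genes, and prostate cancer cells are known for active lipid synthesis.

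In promoters of these genes SREBPs are known to act beside NF-Y and Sp1. Windows of 300 bases around the RefSeq start (GRCm38.p6, 250 bases before and 50 after it) were given for 25 of the 32 genes. They were searched on both strands for TCACNCCAC (the core of a sterol regulatory element), CCAAT (NF-Y), GGGCGG (Sp1) and CACGTG (an E-box); these motifs do not contain each other. CCAAT was in 20 of 25 genes, 80%, against 43.8% of the tested genes with a window. GGGCGG was in 20 of 25, 80%, against 69.7%, and CACGTG in 6 of 25, 24%, against 12.0%. TCACNCCAC was in 1 of 25, Hmgcs1, against 1.41%. Over all 32851 windows the shares were 37.4% for CCAAT, 35.7% for GGGCGG, 7.15% for CACGTG and 1.24% for TCACNCCAC. These are matches of letters and not measured sites.

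The upstream sequences that follow are shown to set the promoter of Hmgcs1, which holds the TCACNCCAC match, beside those of the 4 genes past the thresholds at 24 h for which a window was given (chosen after their values were seen). Capitals mark matches to any of the 4 motifs on either strand. Each sequence is read on the strand of its gene and runs up to the RefSeq start, except that of Cyp51, which stops 49 bases short of it, where the gene of the count table begins: Hmgcs1 at chr13:119690101-119690350 (plus strand), Pmvk at chr3:89454291-89454540 (plus), Cyp51 at chr5:4104747-4104947 (minus), Nsdhl at chrX:72918271-72918520 (plus) and Fasn at chr11:120824548-120824797 (minus).
Hmgcs1: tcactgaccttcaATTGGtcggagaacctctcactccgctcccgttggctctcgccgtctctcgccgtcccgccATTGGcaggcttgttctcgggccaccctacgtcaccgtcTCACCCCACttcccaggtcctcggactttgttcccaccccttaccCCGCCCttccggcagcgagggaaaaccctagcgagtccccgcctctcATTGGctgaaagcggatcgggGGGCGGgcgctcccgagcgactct
Pmvk: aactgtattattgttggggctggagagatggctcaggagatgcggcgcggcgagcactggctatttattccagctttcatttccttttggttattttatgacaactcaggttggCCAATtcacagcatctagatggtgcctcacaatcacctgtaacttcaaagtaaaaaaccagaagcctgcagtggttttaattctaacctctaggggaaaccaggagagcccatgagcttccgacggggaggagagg
Cyp51: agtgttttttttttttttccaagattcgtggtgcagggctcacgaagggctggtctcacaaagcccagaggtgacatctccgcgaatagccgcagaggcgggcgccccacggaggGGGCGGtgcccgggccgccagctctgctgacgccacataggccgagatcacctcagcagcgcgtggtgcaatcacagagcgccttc
Nsdhl: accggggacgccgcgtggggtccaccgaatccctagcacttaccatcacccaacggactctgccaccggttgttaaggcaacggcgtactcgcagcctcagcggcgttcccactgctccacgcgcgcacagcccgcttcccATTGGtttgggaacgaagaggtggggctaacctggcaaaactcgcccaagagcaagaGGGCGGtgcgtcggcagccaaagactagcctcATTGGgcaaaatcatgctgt
Fasn: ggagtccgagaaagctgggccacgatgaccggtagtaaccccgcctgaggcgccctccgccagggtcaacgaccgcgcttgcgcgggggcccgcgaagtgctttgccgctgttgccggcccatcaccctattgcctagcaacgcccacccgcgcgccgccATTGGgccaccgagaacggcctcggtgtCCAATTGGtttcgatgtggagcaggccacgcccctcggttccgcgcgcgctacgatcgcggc
The printed stretch of Hmgcs1 held 3 CCAAT matches and 2 GGGCGG matches beside its TCACNCCAC match. That of Pmvk held 1 CCAAT match and no other, and that of Cyp51 held 1 GGGCGG match, with a CCAAT match at -29 from the start in the bases not printed. In the printed bases Nsdhl had 2 CCAAT matches and 1 GGGCGG match, with 2 more CCAAT matches within 50 bases after its start. Those of Fasn held 3 CCAAT matches, a pair of them overlapping on opposite strands.

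A gene was called when it passed edgeR's quasi-likelihood test (Benjamini-Hochberg adjusted p at or under 0.05) with a change of 1.5-fold or more. Adjustment was over all tested genes of the comparison, and all 32 genes passed the filter on low counts in each; the lowest count was 436, for Fdps. At 12 h none of the 32 was called (0 of 32), where 1.60% of all 11410 tested genes were called; DESeq2 also called 0, and 14 of 32 had an unadjusted p under 0.05, against 21.4% of all tested genes. By the adjusted p alone 3 of 32 passed at 12 h (Insig2 higher, Fasn and Elovl6 lower), against 10.3% of all tested genes, 6.85% higher and 3.47% lower. Insig2 passed with each library left out in turn. Fasn did not pass without 12 h replicate 2 or 3 (adjusted p up to 0.0854), and Elovl6 did not pass without any of the 6 libraries but time 0 replicate 1 (adjusted p up to 0.174). At 12 h the libraries of 6 genes lay all above and those of 6 all below time 0, against 13.4% and 13.6% of all tested genes and 27% for either. At 24 h 5 of 32 were called, 15.6%, against 28.8% of all 11444 tested genes: Cyp51, Nsdhl, Pmvk and Fdft1 were higher and Fasn was lower. By the adjusted p alone the count was 28 of 32 at 24 h, 17 higher and 11 lower, where 70.9% of all tested genes passed. Libraries of 24 h lay all above time 0 for 17 genes and all below for 10, against 35.6% and 38.3% of all tested genes and 73.9% for either. Thus the share of these genes past the thresholds at 24 h was below that of the table, and the members differed among themselves in direction. With TMM factors the median log2 fold change of the 32 was -0.02 at 12 h and 0.16 at 24 h, where the medians over all tested genes were -0.0049 and -0.016. With library totals, described below, the 24 h medians were -0.065 for the 32 and -0.24 for all tested genes.

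**Figure D1:**
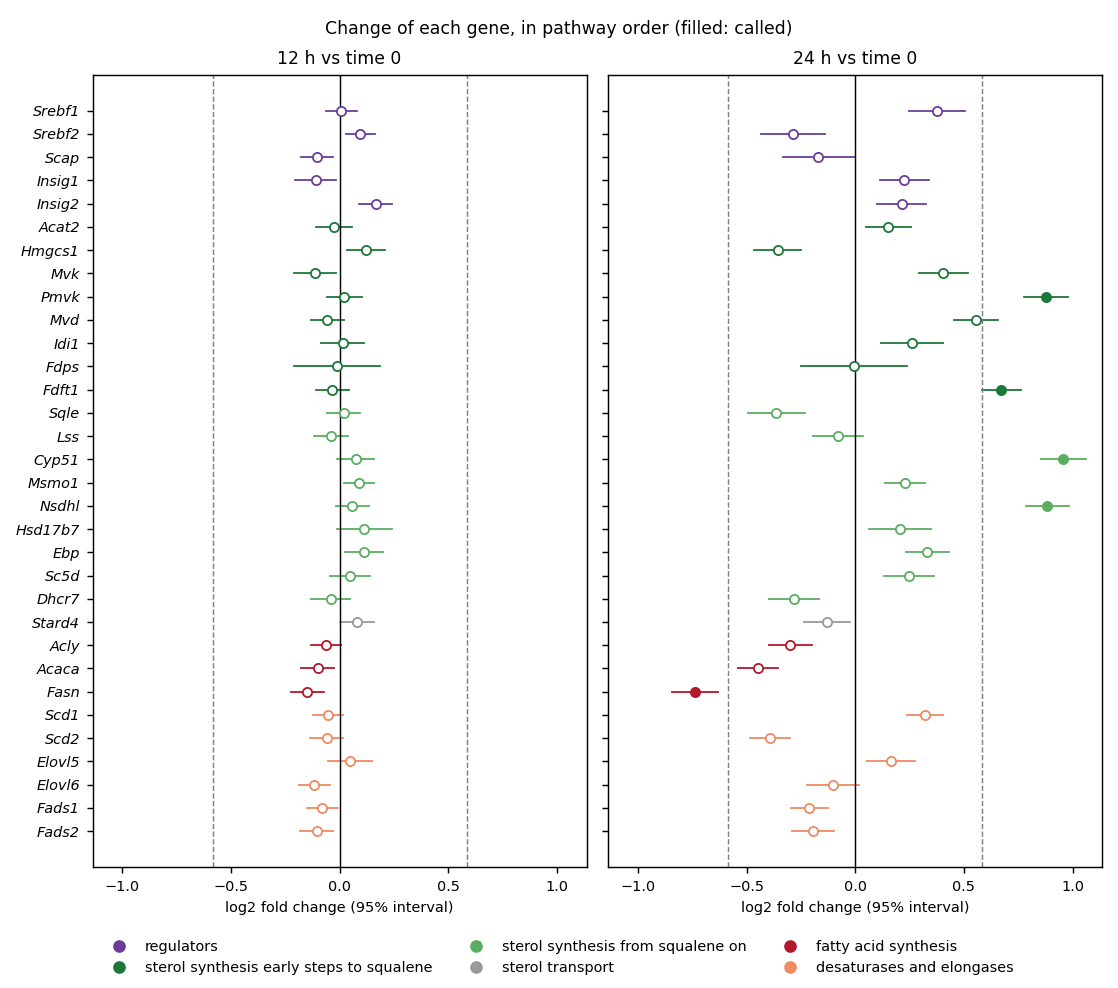
Log2 fold change (x axis, CPM on the edgeR scale, dashed lines at 1.5-fold) of each of the 32 genes in pathway order (y axis) at 12 h and at 24 h against time 0. Bars are 95% intervals of the fit, n = 3 libraries per time, and filled points were called: none at 12 h, and at 24 h Cyp51, Nsdhl, Pmvk and Fdft1 to the right and Fasn to the left.

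With TMM factors the regulators differed from time 0 by less than 1.5-fold at both times; with the correction for length and GC content described below, Srebf1 was called at 24 h (log2 0.73) and Srebf2 and Scap turned to 0.16 and 0.18. Srebf1 (ENSMUSG00000020538.15, chr11:60199089-60222581, minus strand, GRCm38), which encodes SREBP1, stood at 173, 173 and 175 CPM at time 0, at 172, 170 and 181 CPM at 12 h, and at 205, 249 and 220 CPM at 24 h. The 24 h libraries all lay above the rest, and the 12 h libraries overlapped those of time 0. At 24 h Srebf1 was 1.30-fold higher (log2 0.38 ± 0.06 SE, adjusted p = 7.53e-05). Srebf2 (ENSMUSG00000022463.8, chr15:82147181-82205379, plus strand), which encodes SREBP2, was at 360, 368 and 378 CPM at time 0, at 390, 386 and 402 CPM at 12 h, and at 268, 341 and 295 CPM at 24 h. All 3 libraries of 12 h lay above and all 3 of 24 h below those of time 0. Srebf2 differed from time 0 by a log2 value of 0.10 ± 0.03 at 12 h (adjusted p = 0.0733) and of -0.29 ± 0.07 at 24 h (adjusted p = 0.00201).

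Scap, the escort of the SREBPs (ENSMUSG00000032485.14, chr9:110333288-110384950, plus strand), was at 69.9, 70.0 and 72.3 CPM at time 0, at 67.2, 65.4 and 64.4 CPM at 12 h, and at 53.6, 63.7 and 70.4 CPM at 24 h. The 24 h libraries spread widely, with 2 of 3 below and 1 within the range of the other times, and neither comparison with time 0 passed the adjusted p (0.0783 and 0.0564). Insig1 (ENSMUSG00000045294.11, chr5:28071363-28078662, plus strand), itself a classical SREBP target, was at 161, 183 and 179 CPM at time 0, at 157, 157 and 169 CPM at 12 h, and at 212, 196 and 201 CPM at 24 h. It was 1.17-fold higher at 24 h than at time 0 (log2 0.23 ± 0.05, adjusted p = 0.00158), and the 24 h libraries lay above all others. Insig2 (ENSMUSG00000003721.14, chr1:121304353-121332589, minus strand), the isoform known for less dependence on SREBPs, was at 65.9, 66.6 and 63.5 CPM at time 0, at 71.5, 73.0 and 74.9 CPM at 12 h, and at 75.6, 80.4 and 70.5 CPM at 24 h. Insig2 had passed the adjusted p by 12 h (log2 0.17 ± 0.04, adjusted p = 0.00484) and was 1.16-fold above time 0 at 24 h (adjusted p = 0.00243). No difference between 12 and 24 h was detected for it (log2 0.07, 95% interval -0.04 to 0.17, adjusted p = 0.229).

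Within each library the level of Srebf1 per length (CPM per kilobase of exon) was divided by that of Srebf2, a ratio that does not depend on library totals or TMM factors. The ratio was 0.592 to 0.615 at time 0, 0.561 to 0.575 at 12 h and 0.934 to 0.976 at 24 h. Per length of annotated exon, Srebf2 was thus the more abundant transcript at time 0 and at 12 h, and the levels were nearly equal at 24 h. The size of the ratio depends on the lengths used, but its fold change between times does not. Exons sum to 5634 bases for Srebf1 and 7184 for Srebf2, and the longest transcripts have 4299 and 5077. The Insig1 to Insig2 ratio was 2.75 to 3.16 at time 0, 2.42 to 2.53 at 12 h and 2.74 to 3.20 at 24 h, so the 12 h libraries were lowest and the other times overlapped. In an exact two-sided permutation test of the log ratios the change of Srebf1 to Srebf2 from time 0 to 24 h had p = 0.1, the smallest that 3 libraries against 3 allow (0.129 adjusted over 9 tests of 3 ratios), and for Insig1 to Insig2 it gave 0.8. The 12 h ratio of Insig1 to Insig2 gave p = 0.1 in this exact test against either other time, as did the 12 h ratio of Srebf1 to Srebf2.

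**Figure D2:**
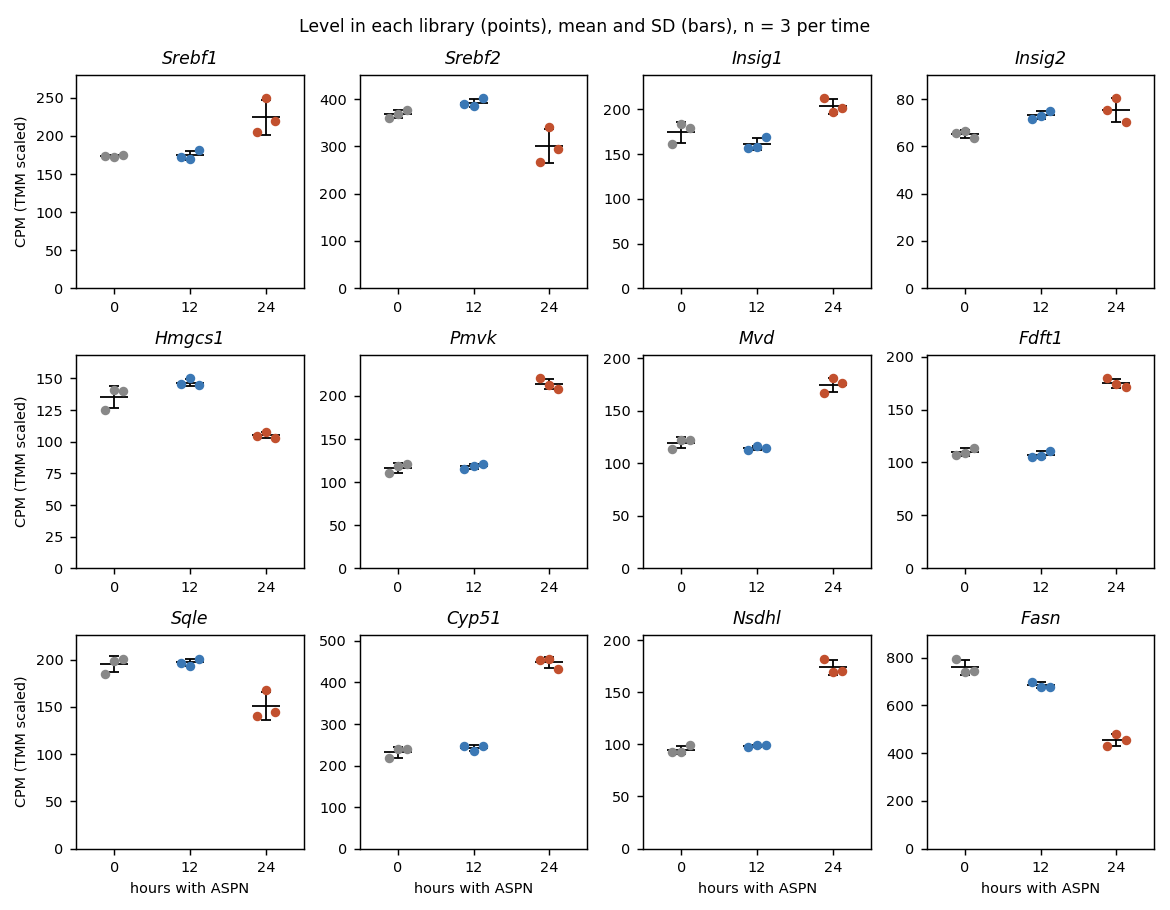
Level in CPM scaled by TMM factors (y axis, from 0) against hours with ASPN (x axis) for 4 regulators and 8 enzymes, with 1 point per library and bars for the mean and SD (n = 3). At 24 h Cyp51, Nsdhl, Pmvk, Mvd and Fdft1 sit above both earlier times and Fasn, Hmgcs1 and Sqle below them, while time 0 and 12 h lie close together.

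In the sterol branch up to squalene, with TMM factors, 6 of 8 enzymes passed the adjusted p in the higher direction at 24 h, 1 in the lower direction and 1 in neither, against 34.4% of all tested genes higher and 36.5% lower. The count depends on the scaling, as described below. Pmvk, phosphomevalonate kinase (ENSMUSG00000027952.16, chr3:89454541-89469013, plus strand), was at 110, 118 and 122 CPM at time 0 and at 115, 118 and 121 CPM at 12 h, and rose to 220, 212 and 208 CPM at 24 h. The 24 h values did not overlap those of either earlier time, a 1.84-fold rise (log2 0.88 ± 0.05, adjusted p = 2.20e-09). Fdft1, squalene synthase (ENSMUSG00000021273.11, chr14:63145150-63179578, minus strand), was at 107, 109 and 114 CPM at time 0, 105, 106 and 111 CPM at 12 h, and 179, 174 and 171 CPM at 24 h. It was 1.59-fold higher at 24 h (log2 0.67 ± 0.04, adjusted p = 1.11e-08). Mvd, mevalonate diphosphate decarboxylase (ENSMUSG00000006517.5, chr8:122433601-122443422, minus strand), was at 113, 123 and 122 CPM at time 0, at 113, 117 and 115 CPM at 12 h, and at 168, 181 and 176 CPM at 24 h. Its 1.47-fold difference from time 0 was just under the threshold (log2 0.55 ± 0.05, adjusted p = 1.65e-07), and against 12 h it was 1.55-fold and was called.

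Mvk, mevalonate kinase, was 1.32-fold higher at 24 h than at time 0 (log2 0.40 ± 0.05, adjusted p = 1.17e-05), with 24 h libraries at 74.6 to 76.8 CPM above those of time 0 at 53.5 to 61.5 CPM. Idi1, isopentenyl diphosphate isomerase, was 1.20-fold higher and Acat2, the cytosolic thiolase that joins 2 acetyl-CoA, 1.11-fold higher. Hmgcs1, the HMG-CoA synthase, went the other way: it was at 125, 141 and 140 CPM at time 0, at 146, 150 and 145 CPM at 12 h, and at 105, 108 and 103 CPM at 24 h. Its 24 h level was 1.28-fold under time 0 (log2 -0.36 ± 0.05, adjusted p = 2.38e-05). Fdps, farnesyl diphosphate synthase, was the lowest of the 32 per length at each time and gave no detectable difference at 24 h (log2 -0.0061, 95% interval -0.25 to 0.24).

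From squalene on, with TMM factors, 6 of 9 enzymes passed the adjusted p in the higher direction at 24 h, 2 in the lower direction and 1 in neither, against the same 34.4% and 36.5% of all tested genes. This count too depends on the scaling, as described below. Cyp51, the lanosterol demethylase (ENSMUSG00000001467.5, chr5:4081145-4104746, minus strand), was at 217, 239 and 239 CPM at time 0 and 247, 235 and 248 CPM at 12 h, and rose to 455, 458 and 432 CPM at 24 h. Under TMM scaling this was the largest change among the 32 genes, 1.94-fold (log2 0.96 ± 0.05, adjusted p = 1.39e-09), and the earlier times overlapped each other. Nsdhl, which acts in the removal of the C4 methyl groups (ENSMUSG00000031349.4, chrX:72918557-72958514, plus strand), was at 92.3, 92.7 and 99.1 CPM at time 0 and 97.1, 99.0 and 99.2 CPM at 12 h, and rose to 182, 169 and 171 CPM at 24 h. Its rise was 1.85-fold (log2 0.88 ± 0.05, adjusted p = 2.19e-09).

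The partners of Nsdhl at the same step moved less: Msmo1, the C4 methyl oxidase, was 1.17-fold higher (adjusted p = 0.00035) and Hsd17b7, the keto reductase, 1.15-fold higher (adjusted p = 0.0140). Ebp, the sterol isomerase, was 1.26-fold higher with 52.0, 51.8 and 52.4 CPM at 24 h against 41.5, 40.6 and 42.6 CPM at time 0. Sc5d, the sterol desaturase, was 1.19-fold higher. Sqle, squalene epoxidase and a rate-limiting step of the pathway, was at 185, 199 and 201 CPM at time 0, 197, 193 and 201 CPM at 12 h, and 141, 168 and 145 CPM at 24 h. The 24 h libraries lay below all others, and Sqle was 1.29-fold lower than at time 0 (log2 -0.36 ± 0.06, adjusted p = 0.00013). Dhcr7, a late reductase of the pathway, was 1.22-fold lower (log2 -0.28 ± 0.05, adjusted p = 0.000335). Lss, which cyclizes squalene epoxide to lanosterol, did not pass (log2 -0.08 ± 0.05, adjusted p = 0.194). Stard4, a sterol carrier of the cytosol and the sole transport gene of the list, was 1.10-fold lower at 24 h (adjusted p = 0.0310), with libraries of time 0 and 24 h that overlapped. Leaving out 1 library raised its adjusted p to as much as 0.172.

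The 3 enzymes listed under fatty acid synthesis (Fasn, Acaca and Acly) all passed the adjusted p in the lower direction at 24 h, as did 36.5% of all tested genes. The length and GC correction described below ended the call of Fasn (-0.74 to -0.11), brought Acaca from -0.45 to -0.15, and left Acly at -0.04 without passing the adjusted p. Fasn, the fatty acid synthase (ENSMUSG00000025153.9, chr11:120805846-120824547, minus strand), was at 796, 739 and 746 CPM at time 0, at 698, 679 and 676 CPM at 12 h, and at 430, 478 and 453 CPM at 24 h. The 3 times did not overlap, and Fasn was at a log2 value of -0.15 ± 0.04 at 12 h (adjusted p = 0.0114, not passed without 12 h replicate 2 or 3) and was 1.67-fold lower at 24 h (log2 -0.74 ± 0.05, adjusted p = 1.73e-08). Acaca, the acetyl-CoA carboxylase, was at 123, 113 and 118 CPM at time 0, 107, 111 and 110 CPM at 12 h, and 85.2, 87.6 and 85.9 CPM at 24 h, 1.36-fold under time 0 (log2 -0.45 ± 0.04, adjusted p = 6.35e-07). Acly, which makes cytosolic acetyl-CoA from citrate and so feeds both branches, was 1.23-fold lower at 24 h (log2 -0.30 ± 0.05, adjusted p = 5.23e-05).

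Among the 6 desaturases and elongases, 2 passed the adjusted p in the higher direction, 3 in the lower direction and 1 in neither, and 0 were called, against 34.4% and 36.5% of all tested genes by the adjusted p. Scd1 and Scd2, neighbouring genes on chromosome 19 that lie 87591 bases apart and encode stearoyl-CoA desaturases, moved in opposite directions. Scd1 was at 288, 281 and 295 CPM at time 0, 281, 270 and 280 CPM at 12 h, and 362, 355 and 358 CPM at 24 h, 1.25-fold above time 0 (log2 0.32 ± 0.04, adjusted p = 5.76e-06). Scd2, the highest of the 32 per length at each time, was at 3776, 3892 and 3879 CPM at time 0, 3666, 3575 and 3812 CPM at 12 h, and 2893, 3036 and 2840 CPM at 24 h, 1.31-fold under time 0 (log2 -0.39 ± 0.04, adjusted p = 2.31e-06). The Scd1 to Scd2 ratio per length was 0.0808 to 0.0853 at time 0, 0.0820 to 0.0857 at 12 h and 0.131 to 0.141 at 24 h. The exact permutation test of this ratio gave 0.8 for 12 h against time 0 and 0.1, the smallest possible, for 24 h against either earlier time.

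Fads1 and Fads2, the desaturases of polyunsaturated fatty acids, lie 81142 bases apart on the same chromosome and were 1.16-fold and 1.15-fold lower at 24 h (adjusted p = 0.000273 and 0.00151). Their ratio per length overlapped at the 3 times, from 0.481 to 0.538 over the 9 libraries. Elovl5, an elongase of polyunsaturated fatty acids, was 1.12-fold higher at 24 h (adjusted p = 0.0111). Elovl6, which lengthens palmitate, was at a log2 value of -0.12 ± 0.03 at 12 h (adjusted p = 0.0385, lost in 5 of the 6 fits that leave out a library) and was not separated from time 0 at 24 h (log2 -0.10 ± 0.05, adjusted p = 0.105).

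**Figure D3:**
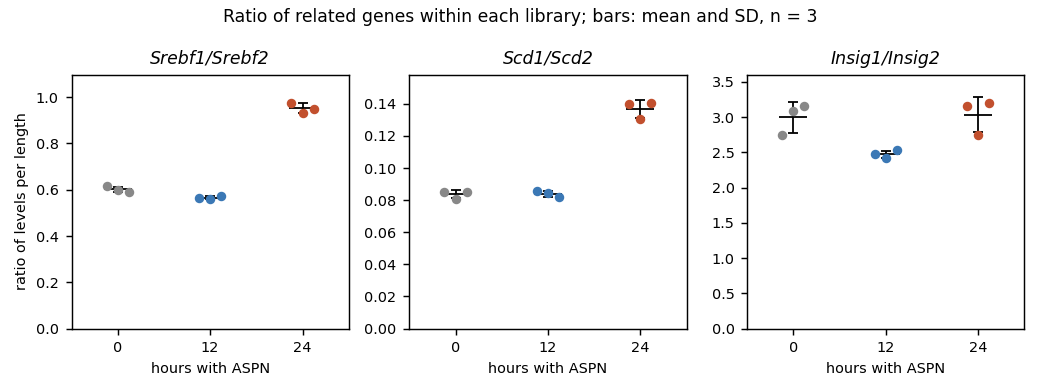
Ratio of the level per length of paired genes in each library (y axis, from 0) against hours with ASPN (x axis), 1 point per library with the mean and SD (n = 3). Srebf1 to Srebf2 and Scd1 to Scd2 sit higher in all 3 libraries of 24 h than at either earlier time, and Insig1 to Insig2 is lowest at 12 h.

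Per length, Scd2 stood far above the other 31 genes, with means of 704, 674 and 535 CPM per kilobase at time 0, 12 h and 24 h. At time 0 it was followed by Fads2 at 109, Acly at 87.4, Fasn at 69.5, Pmvk at 68.1 and Mvd at 64.3 CPM per kilobase. At 24 h the order after Scd2 was Pmvk at 125, Cyp51 at 102, Fads2 at 94.9, Mvd at 94.1 and Scd1 at 73.2 CPM per kilobase, and Fasn had gone from rank 4 to rank 12. Neighbours such as Fads2 and Mvd at 24 h did not differ beyond the spread of their libraries. The ranks also depend on dividing by all annotated exons, which for Acaca sum to 17074 bases against 9513 in its longest transcript. Summed over the 32 genes, the share of library counts was 0.907 to 0.964% at time 0, 0.882 to 0.924% after 12 h and 0.711 to 0.762% after 24 h. The 31 genes without Scd2 took 0.515 to 0.548% at time 0 and 0.456 to 0.485% at 24 h. On TMM-scaled libraries the 32 genes summed to 8938 ± 165 CPM at time 0 and 8083 ± 244 CPM at 24 h (SD, n = 3), and the 31 genes without Scd2 to 5089 ± 103 and 5160 ± 144 CPM, with libraries that overlapped on that scale but not as shares of counts.

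Between 12 and 24 h 5 of 32 genes were called, all higher, against 25.7% of all 11394 tested genes (10.4% higher): Cyp51 by a log2 value of 0.91, Pmvk by 0.88, Nsdhl by 0.85, Fdft1 by 0.73 and Mvd by 0.63 (SE 0.04 each). By the adjusted p alone 15 were higher and 10 lower, where 71.3% of all tested genes passed, 35.7% higher and 35.6% lower. Libraries of 24 h lay all above those of 12 h for 16 genes and all below for 11, against 35.5% and 38.5% of all tested genes and 73.9% for either. Fasn was lower by 0.57 ± 0.04 on the log2 scale (adjusted p = 3.31e-08), just short of 1.5-fold, and Hmgcs1 differed by -0.46 ± 0.04 (adjusted p = 9.87e-08). This comparison shares its 24 h libraries with that of 24 h against time 0.

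Directions at 24 h depended on the scaling for a part of the list. Library totals without TMM factors (1.04 to 1.07 at time 0 and 0.899 to 0.914 at 24 h) moved the median of all tested genes by -0.22, and Insig2, Acat2, Hsd17b7 and Elovl5 then had negative log2 values. With totals 3 genes were called higher and 4 lower at 24 h: Fdft1 was at 0.45 and no longer called, and Sqle, Acaca and Scd2 were called lower with Fasn. Cyp51, Nsdhl and Pmvk were called higher under each scaling that was tried.

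Log2 fold changes at 24 h went with exonic length and, over all tested genes, also with GC content. The Spearman correlation of log2 fold change at 24 h with exonic length was -0.62 over the 32 genes, which share their libraries and scaling, and -0.15 over 11439 tested genes; with GC content it was -0.08 and -0.16. Each library was then corrected for a smooth trend in the length and GC content of the longest transcript. Fasn, whose longest transcript has 10050 bases and whose exons sum to 10947, went from -0.74 to -0.11 (adjusted p = 0.0423) and was no longer called. Acaca, at 9513 and 17074 bases, went from -0.45 to -0.15. Acly, Fads1 and Fads2 went to -0.04, -0.07 and -0.05 and no longer passed the adjusted p, while Scd1 and Scd2 stayed on opposite sides of 0 at 0.44 and -0.13. Srebf1 went from 0.38 to 0.73 and was called, and Srebf2, Scap and Lss changed sign to 0.16, 0.18 and 0.21. Cyp51 at 0.99, Fdft1 at 0.84, Nsdhl at 0.75 and Pmvk at 0.73 were still called higher. The correction left 5 of the 32 called, all higher, and split the calls over all tested genes into 1456 higher and 1454 lower, where TMM alone gave 1374 and 1924. Length and GC content were corrected together, so the part of each in these shifts was not tested. GC content was 57.9% for Fasn, 58.4% for Srebf1, 57.9% for Srebf2 and 59.1% for Scap, against a median of 49.3% over the 32 genes. It was 49.1% for Acaca and 48.7% for Lss, which also shifted upwards, and 57.0% for Pmvk, which shifted down. The part of length in the fall of Fasn beyond this correction was not tested.

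**Figure D4:**
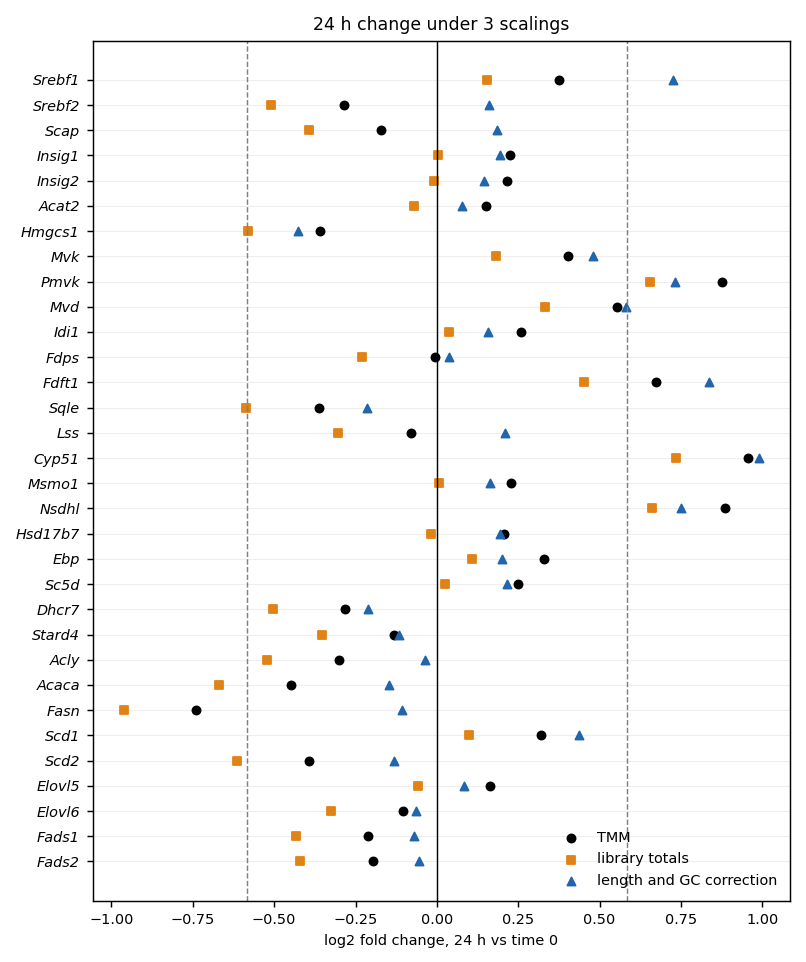
Log2 fold change at 24 h against time 0 (x axis) of each of the 32 genes (y axis) with TMM factors (circles), library totals (squares) and the length and GC correction (triangles), dashed lines at 1.5-fold. Cyp51, Nsdhl and Pmvk stay right of the line under all 3, while Fasn moves from -0.74 to -0.11 and Srebf2 from -0.29 to 0.16 with the correction.

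**Figure D5:**
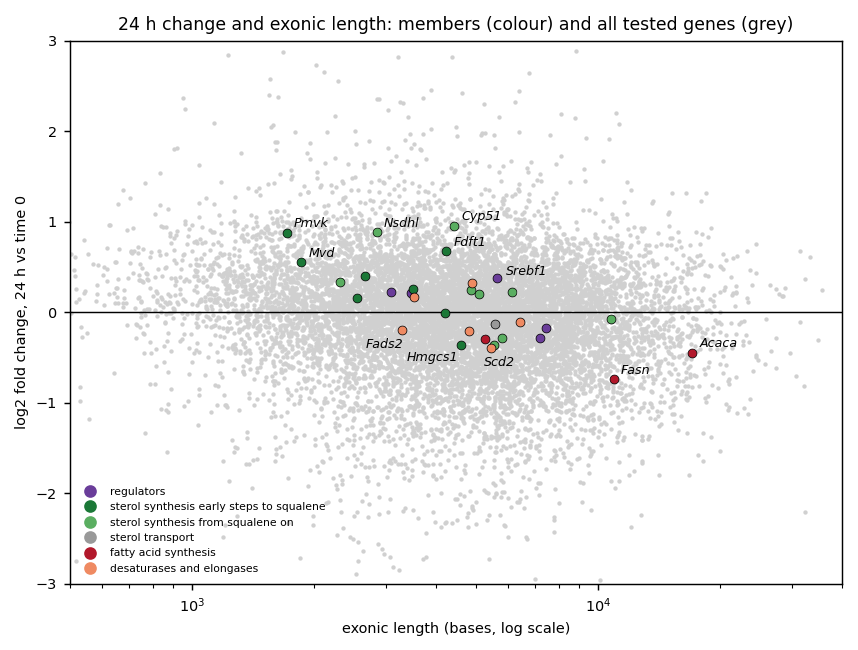
Log2 fold change at 24 h against time 0 (y axis) and exonic length in bases (x axis, log scale) for the 32 genes, coloured by role, over all tested genes in grey; 83 of 11439 genes lie outside the axes. The called genes Pmvk, Nsdhl, Cyp51 and Fdft1 lie above 0 at 1713 to 4415 bases, and Fasn and Acaca lie below 0 at 10947 and 17074 bases.

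Some counts share exons with other genes. In the GENCODE M21 annotation Fdft1 overlaps Ctsb on the opposite strand by 774 bases, 18.3% of its exons, and Ctsb had 11440 to 15267 counts in a library. Scap, Hmgcs1 and Idi1 overlap opposite-strand genes over 13.2%, 12.1% and 9.22% of their exons, and Cyp51 overlaps Akap9 over 3.76%. The strand setting of the counting is not given in the sources used here, so reads from these stretches cannot be told apart. Fdps shares 26.7% of its exons on the same strand with Gm43738, which had at most 1 count in a library. How the counting treated reads from this shared stretch is not given in the sources used here. Its effect on the low level of Fdps was not tested.

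Other genes of lipid metabolism, in 7 lists, gave no call at 12 h, where 1.60% of all tested genes were called. By the adjusted p alone 6.85% of all tested genes were higher and 3.47% lower. Counts higher and lower were 4 and 2 of 23 remaining synthesis enzymes and 4 and 1 of 14 uptake genes. For droplet genes they were 1 and 2 of 12, and for SREBP processing 1 and 1 of 12. LXR genes gave 0 and 1 of 9, oxidation genes 0 and 3 of 17 and isoprenoid genes 0 and 0 of 11. At 24 h, when 12% of all tested genes were called higher and 16.8% lower, the remaining enzymes of sterol and fatty acid synthesis had 3 higher and 3 lower calls of 23 tested, with a median log2 value of 0.20. They included Oxsm, the mitochondrial ketoacyl synthase, at -1.41 ± 0.07 and Mid1ip1, an activator of acetyl-CoA carboxylase, at -0.95 ± 0.06. Of 12 genes for the processing and turnover of SREBPs, 4 were called lower and 0 higher, with a median of -0.57. Fbxw7, the ubiquitin ligase subunit that marks nuclear SREBPs for decay, went from 64.6 ± 0.7 to 16.7 ± 0.5 CPM (SD, n = 3), a log2 value of -1.95 ± 0.05 (adjusted p = 6.90e-12). The endoplasmic reticulum ligases Rnf145 and Rnf139 were at -1.52 ± 0.05 and -1.11 ± 0.06.

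In the LXR and efflux list 3 of 9 were called lower and 0 higher: Rxra, the partner receptor of LXR, at -1.37 ± 0.07, Abca1, the cholesterol exporter, at -1.35 ± 0.14, and Lpcat3 at -0.59 ± 0.06. Of 14 genes of lipoprotein uptake and lysosomal cholesterol 3 were called higher and 1 lower. Npc2, the lysosomal sterol carrier, was at 0.74 ± 0.04 and Stard3, a sterol carrier of late endosomes, at 0.64 ± 0.04. Of 12 genes of esterification and lipid droplets 1 was higher and 2 lower: Plin2, a coat protein of droplets, at 1.05 ± 0.05, the lipase Lipe at -1.04 ± 0.07, and the acyltransferase Gpam at -0.74 ± 0.08. The isoprenoid branch had 1 call of 11, Rabggtb at 0.93 ± 0.04, and fatty acid oxidation 2 of 17, Acadvl at 0.59 ± 0.06 and the rate-limiting Cpt1a at -0.78 ± 0.04. Under the length and GC correction Gpam went to -0.48, and Gpam, Cpt1a, Lpcat3 and Acadvl were then not called; library totals did not call Npc2, Stard3 and Acadvl. The calls of Lpcat3 and Acadvl rested near the threshold and were each lost in 8 of 19 alternatives, 3 of them leaving out 1 library: time 0 replicate 2 or 3 or 24 h replicate 1 for Lpcat3, and time 0 replicate 3 or 24 h replicate 1 or 3 for Acadvl. No gene named from these lists changed sign in these 19 alternatives. The share called was 33.3% for the SREBP and LXR lists, 28.6% for uptake, 26.1% for the remaining synthesis genes, 25% for droplets, 11.8% for oxidation and 9.09% for the isoprenoid branch, against the 28.8% of all tested genes.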

How the data were processed

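The authors trimmed paired-end reads with Cutadapt, aligned them with STAR to GRCm38.p6 (GENCODE M24) and deposited whole-number read counts per gene from featureCounts; per the labels and the methods these counts are not normalized. All 9 libraries were used, grouped by their titles, 3 per time; p-values measure the spread between these wells. The counts of replicate libraries differed beyond sampling noise in every pair. Counts were fitted with edgeR 4.0.16 (R 4.3.3): filterByExpr, TMM factors and the quasi-likelihood F test, two-sided, separately for 12 h vs time 0, 24 h vs time 0 and 24 h vs 12 h, with Benjamini-Hochberg adjustment over all tested genes. Called genes had an adjusted p at or under 0.05 and a 1.5-fold change or more. Levels are CPM on TMM-scaled libraries; exonic lengths, GC content and overlaps come from GENCODE M21, which holds 99.9% of the genes. The length and GC correction was a loess trend (span 0.3) per library on the length and GC content of the longest transcript. Alternatives were DESeq2 1.42.0, limma-voom (limma 3.58.1), other scalings, filters and thresholds, a replicate block, 1 fit of all libraries and leaving out each library. The scripts were tested on simulated counts. The genes and lists were chosen with earlier results of these data known. Every listed gene was named, with library values for the regulators and called genes, and from each context list at most the 3 called genes of largest change; library values of other genes were added after seeing them. Some genes that this rule would name are not reported here.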

Additional observations from a re-analysis of the deposited data

Results flagged for a closer look

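Each of 3 genes had all 3 libraries of 12 h on 1 side of time 0 and all 3 libraries of 24 h on the other; both times are set against the same time 0 libraries. This was so for 3 of 32 genes, and for 5.51% of the 11270 genes tested in all comparisons. Since this pattern already sets 12 and 24 h apart, the adjusted p values of edgeR's quasi-likelihood test between them are no independent support. Srebf2 went from 360 to 378 CPM at time 0 to 386 to 402 CPM at 12 h and 268 to 341 CPM at 24 h, a log2 difference between 24 and 12 h of -0.36 (adjusted p = 0.00022), which turned to 0.09 with the length and GC correction. Hmgcs1 went from 125 to 141 CPM at time 0 to 145 to 150 CPM at 12 h and 103 to 108 CPM at 24 h, a log2 difference of -0.46 (adjusted p = 9.87e-08). Scd1 went from 281.4 to 294.9 CPM at time 0 to 269.7 to 281.3 CPM at 12 h, nearly touching, and 355.0 to 361.7 CPM at 24 h, a log2 difference of 0.39 (adjusted p = 2.35e-07). None of the 3 passed the adjusted p at 12 h against time 0 (0.0733 for Srebf2, 0.0747 for Hmgcs1 and 0.395 for Scd1).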

How the results depend on the processing

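The number of the 32 genes called changed by more than 1.5 times under 1 alternative, the adjusted p alone: 3 at 12 h, 28 at 24 h and 25 for 24 h vs 12 h. Leaving out each library gave 0 to 0, 5 to 5 and 5 to 6 calls. The replicate block gave 0, 5 and 5 calls. Same-numbered libraries showed no shared deviation (mean correlation -0.05, -0.10 and 0.02), but 3 libraries per time are too few to exclude a pairing of the wells. The other calls that changed are these: Mvd was called at 24 h with upper-quartile factors (0.59) and lost against 12 h with the glmTreat test (adjusted p = 0.192) and with library totals (0.41). Fasn was called against 12 h in the fit of all 9 libraries (-0.59), with library totals (-0.79) and without 24 h replicate 2 (-0.61). With library totals Hmgcs1 was called lower against 12 h (-0.68) and Fdft1 was lost (0.51). With the length and GC correction Srebf1 (0.75) and Mvk (0.60) were called against 12 h; adding the replicate block left Fasn at -0.11 at 24 h (adjusted p = 0.0680).

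Signs changed as follows, as log2 values; the cause was not tested. At 12 h, upper-quartile factors gave Srebf1 -0.0058 and Idi1 -0.00056; library totals gave Srebf1 -0.012, Idi1 -0.0071 and Sqle -0.0023; the correction gave Srebf1 -0.014, Idi1 -0.013 and Sqle -0.0042, and with the replicate block -0.014, -0.013 and -0.0035. At 24 h, Fdps was 0.026 with upper-quartile factors, 0.0083 with DESeq2, 0.0073 with RLE factors, 0.037 with the correction and 0.038 with the block added. Library totals gave Insig2 -0.0074, Acat2 -0.071, Hsd17b7 -0.017 and Elovl5 -0.059. The correction gave Srebf2 0.16, Scap 0.18 and Lss 0.21, and with the replicate block 0.16, 0.18 and 0.21. For 24 h vs 12 h, upper-quartile factors gave Lss 0.0039, and library totals gave Insig2 -0.15, Acat2 -0.023, Fdps -0.20, Msmo1 -0.065, Hsd17b7 -0.11, Sc5d -0.0011, Elovl5 -0.088 and Elovl6 -0.19. The correction gave Srebf2 0.094, Scap 0.31, Lss 0.27, Acly 0.047, Fasn 0.053, Fads1 0.029 and Fads2 0.065, and with the block 0.091, 0.31, 0.27, 0.046, 0.053, 0.029 and 0.065. Leaving out each library changed signs for Srebf1 (-0.021 to 0.027), Pmvk (-0.015 to 0.052), Idi1 (-0.018 to 0.054), Sqle (-0.016 to 0.040), Sc5d (-0.0048 to 0.10), Fdps (-0.11 to 0.068) and Dhcr7 (-0.075 to 0.0022) at 12 h, for Fdps (-0.10 to 0.087) at 24 h, and for Lss (-0.081 to 0.020), Scap (-0.14 to 0.050), Fdps (-0.071 to 0.080) and Elovl6 (-0.035 to 0.072) for 24 h vs 12 h.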
